A study of Mus musculus with 16 samples.

Results

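The guanylate-binding proteins (GBPs) and immunity-related GTPases (IRGs) are interferon-inducible GTPases. Levels of 10 of their genes were followed in B16F10 mouse melanoma cells carrying a guide RNA for Nlrc5 or a scramble guide. The Nlrc5 transcript itself was higher with the Nlrc5 guide in every setting. The 10 genes were Gbp2, Gbp3, Gbp4, Gbp5, Gbp7, Gbp9, Irgm1, Irgm2, Igtp and Iigp1, taken by symbol from 3 tables of normalised counts. In TDM culture 6 of the 10 were listed among 13143 genes, in TDMa culture 7 among 13284, and in TDMa tumours all 10 among 14933. Gbp4, Gbp5 and Gbp9 had no entry in either culture table, and Iigp1 had none for TDM culture.

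The libraries came from B16F10-TDM and B16F10-TDMa, both derived from B16F10, a pigmented melanoma line of C57BL/6 origin. TDM culture comprised 2 libraries with sgNlrc5 and 2 with sgScramble, a scramble guide. TDMa culture had 2 libraries of each guide, and tumours of TDMa cells had 4 of each. All cells of both guides belonged to one of these derived lines, and the labels say neither what TDM and TDMa stand for nor whether a line is a single clone. They also leave unsaid whether replicates were separate cultures or animals, and which mice bore the tumours, so that the p-values rest on the spread between these samples alone. Each tumour library was bulk RNA, in which fewer cells of a type and less RNA per cell cannot be told apart.

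GBPs and IRGs act inside the cell. Interferon gamma, released mainly by T cells and natural killer cells, signals through JAK kinases to switch their genes on, and type I interferon induces many of them as well. GBPs coat vacuoles and bacteria and help trigger inflammasomes. IRGs fall into effectors such as Iigp1, which load onto the vacuoles of parasites and break them, and regulators such as Irgm1, Irgm2 and Igtp, which keep the effectors off the cell's own membranes. In tumours their transcripts are common members of interferon response signatures. Nlrc5, the targeted gene, encodes the transactivator of MHC class I genes and is itself induced by interferon gamma.

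Reads recovered over the listed genes ran from 12183889 to 16390886 per library. Nlrc5 was at 57.4 and 78.6 normalised counts with sgNlrc5 in TDM culture, against 22.9 and 12.7 with sgScramble. In TDMa culture it was at 3146 and 3142 with sgNlrc5, against 254 and 242 with sgScramble. In tumours it ran from 3434 to 4381 with sgNlrc5, against 257 to 837 with sgScramble. The transcript of Nlrc5 was thus higher, not lower, with sgNlrc5 in every setting. All 7 melanocyte lineage genes checked, Pmel, Mlana, Tyr, Dct, Tyrp1, Sox10 and Mitf, were listed in every table.

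Promoters of interferon-induced genes commonly carry short sequences through which interferons act, and 4 promoters are shown because Gbp3 and Irgm1 had the greatest and the smallest of the tested changes in TDMa culture, Igtp had the greatest in tumours, and the Irgm2 window shares a run of sequence with that of Igtp. Of the 10 genes, 7 had an entry in the RefSeq promoter table (GRCm38.p6, an earlier build than the GRCm39 named in the submitters' processing notes), with 8 windows reaching from 250 bases before the start to 50 bases after it. The windows were searched on both strands for GAAA, any 2 bases and GAAA again, a form of the interferon-stimulated response element (ISRE) bound by IRF factors, which appears as a pair of TTTC when it lies on the other strand. They were also searched for TTCNNNGAA, the gamma-activated site (GAS), which reads the same on both strands. Capitals mark the matches in the 250 bases before the start.
Igtp, chr11:58199306-58199555, plus strand: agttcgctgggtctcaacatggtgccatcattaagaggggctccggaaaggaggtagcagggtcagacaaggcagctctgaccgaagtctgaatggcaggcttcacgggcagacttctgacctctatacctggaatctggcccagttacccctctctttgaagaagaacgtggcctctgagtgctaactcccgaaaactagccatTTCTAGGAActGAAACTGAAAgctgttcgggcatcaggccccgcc
Irgm2, chr11:58214727-58214976, plus strand: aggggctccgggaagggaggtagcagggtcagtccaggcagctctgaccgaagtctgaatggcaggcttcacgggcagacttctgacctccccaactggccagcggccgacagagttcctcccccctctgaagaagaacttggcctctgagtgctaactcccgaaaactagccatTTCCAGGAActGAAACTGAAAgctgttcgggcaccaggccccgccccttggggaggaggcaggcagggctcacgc
Gbp3, chr3:142559794-142560043, plus strand: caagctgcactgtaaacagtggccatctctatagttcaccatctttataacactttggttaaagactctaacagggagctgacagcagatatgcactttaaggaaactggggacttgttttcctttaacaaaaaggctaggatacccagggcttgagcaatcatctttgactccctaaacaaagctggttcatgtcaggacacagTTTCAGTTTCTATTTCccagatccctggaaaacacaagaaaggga
Irgm1, chr11:48871421-48871670, minus strand: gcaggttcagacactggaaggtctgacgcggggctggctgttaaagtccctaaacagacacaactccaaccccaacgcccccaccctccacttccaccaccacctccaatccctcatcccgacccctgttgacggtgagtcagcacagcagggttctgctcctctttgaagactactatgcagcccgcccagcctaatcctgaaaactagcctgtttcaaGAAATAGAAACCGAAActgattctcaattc

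Each of the 7 genes had an ISRE match in a window, and the second Gbp3 window had none. An ISRE match was found in 3.44% of all 32851 windows searched. A GAS match was present in 4 windows, those of Gbp5, Gbp7, Igtp and Irgm2, against 8.3% of all windows, and both motifs together occurred in 0.454% of all windows. Igtp and Irgm2, whose products are regulatory IRGs, had the GAS match just before the ISRE match. Their windows also shared an identical run of 61 bases. That run begins after both matches, holds neither of them, and continues past the start, so that only part of it is printed above. No other pair of windows shared a run of more than 13 bases. In Gbp3 and Irgm1 the capitals are a pair of overlapping ISRE matches. A match describes these letters and was not tested as a binding site.

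In cultured TDM cells none of the 6 listed genes passed the test for a difference between guides, although sgNlrc5 replicate 2 was the highest library for each of them. The guide effect was fitted with limma on log2(normalised count + 1), two-sided, with Benjamini-Hochberg adjustment over all genes tested and a threshold of 0.05, and 0.517% of the 11989 genes tested were called. At an unadjusted p under 0.05 the count was 2 of 6 genes, beside 1084 of all genes tested (9.04%), and limma's voom on the recovered reads also called 0.

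Gbp7 (ENSMUSG00000040253), reported to help assemble the phagocyte NADPH oxidase, was at 52.9 and 64.4 normalised counts with sgNlrc5, against 28.2 and 29.7 with sgScramble, which is 0.99 ± 0.28 on the log2 scale (difference ± standard error, limma adjusted p = 0.19). Gbp2 (ENSMUSG00000028270), which is recruited to the vacuole of Toxoplasma, was at 46.1 and 49.2 with sgNlrc5, against 38.8 and 37.1 with sgScramble (0.32 ± 0.27, adjusted p = 0.77). Gbp3 (ENSMUSG00000028268), a GBP of the same gene cluster, was at 25.9 and 45.5 with sgNlrc5, against 23.8 and 18.0 with sgScramble (0.70 ± 0.37, adjusted p = 0.61). For these 3 GBPs both sgNlrc5 libraries lay above both sgScramble libraries, as they did for 19.3% of all genes tested.

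For the 3 regulatory IRGs the guides overlapped. Irgm1 (ENSMUSG00000046879) was at 2694 and 4312 normalised counts with sgNlrc5, against 3054 and 2793 with sgScramble (0.22 ± 0.13, adjusted p = 0.65). Irgm2 (ENSMUSG00000069874) was at 402 and 802 with sgNlrc5, against 521 and 486 with sgScramble (0.17 ± 0.19, adjusted p = 0.85). Igtp (ENSMUSG00000078853) was at 335 and 534 with sgNlrc5, against 347 and 316 with sgScramble (0.35 ± 0.15, adjusted p = 0.52). The sgNlrc5 libraries thus stood on either side of the sgScramble pair for Irgm1 and Irgm2. Replicate 2 with sgNlrc5 was the highest of the 4 libraries for 6 of 6 genes, and for 24.4% of all genes tested. Leaving out a library here leaves its guide with 1 library, which has no spread of its own and is assumed to vary like the other guide's pair, so that the small p-values below rest on that pair. Without sgNlrc5 replicate 1 the log2 fold changes were 0.56 for Irgm1 (adjusted p = 9e-06), 0.67 for Irgm2 (adjusted p = 0.00065) and 0.69 for Igtp (adjusted p = 0.0044). Without sgNlrc5 replicate 2 they were -0.12 for Irgm1 and -0.32 for Irgm2, and without sgScramble replicate 1 Irgm1 was at 0.29 (adjusted p = 0.037). Over the alternatives the log2 fold change ran from -0.12 to 0.56 for Irgm1, from -0.32 to 0.67 for Irgm2 and from 0.018 to 0.69 for Igtp. The IRG values in this line thus depended on which sgNlrc5 library was kept.

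In cultured TDMa cells the guide went with a large drop in these genes. All 5 that passed the filter of a mean normalised count of at least 10 fell, by log2 1.69 to 3.40, while 16.9% of the 12138 genes tested were called lower and 34.2% were called in either direction. Their median log2 fold change was -2.62, beside -0.00064 over all genes tested, and each had a mean of at least 10 in both groups.

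Gbp3 had the greatest drop of the 5. It was at 11.2 and 10.7 normalised counts with sgNlrc5, against 158 and 98.9 with sgScramble, which is -3.40 ± 0.30 in log2 (limma adjusted p = 5.6e-08). Gbp2 was at 25.9 and 24.2 with sgNlrc5, against 137 and 107 with sgScramble (-2.23 ± 0.24, adjusted p = 9e-07). The sgNlrc5 libraries were within a few counts of each other for both genes, far under the sgScramble pair.

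The regulatory IRGs followed the same direction. Igtp was at 19.1 and 24.2 normalised counts with sgNlrc5, against 173 and 128 with sgScramble (-2.74 ± 0.25, adjusted p = 8.2e-08). Irgm2 was at 36.0 and 41.7 with sgNlrc5, against 268 and 221 with sgScramble (-2.62 ± 0.19, adjusted p = 3.9e-09). Irgm1, which also has roles in autophagy and mitochondrial upkeep, had the smallest drop, with 588 and 558 with sgNlrc5, against 1862 and 1846 with sgScramble (-1.69 ± 0.057, adjusted p = 8.5e-14). For all 5 genes both sgNlrc5 libraries lay below both sgScramble libraries, which was so for 33% of all genes tested.

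The remaining listed genes, Gbp7 and Iigp1, were under the filter and were not tested. Gbp7 had 0 reads in each sgNlrc5 library and 12 and 14 in the sgScramble libraries. Counting 3 reads over the sgNlrc5 group as the most that a count of 0 allows, Gbp7 was at least 7.94-fold lower with sgNlrc5. Iigp1 (ENSMUSG00000054072), the effector IRG, had 2 and 0 reads with sgNlrc5, against 25 and 10 with sgScramble. The ratio of its normalised counts had a 95% interval of 0.00726 to 0.243, which like the bound covers counting error only. The 5 tested genes kept their call and direction under all 13 alternatives.

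**Figure D1:**
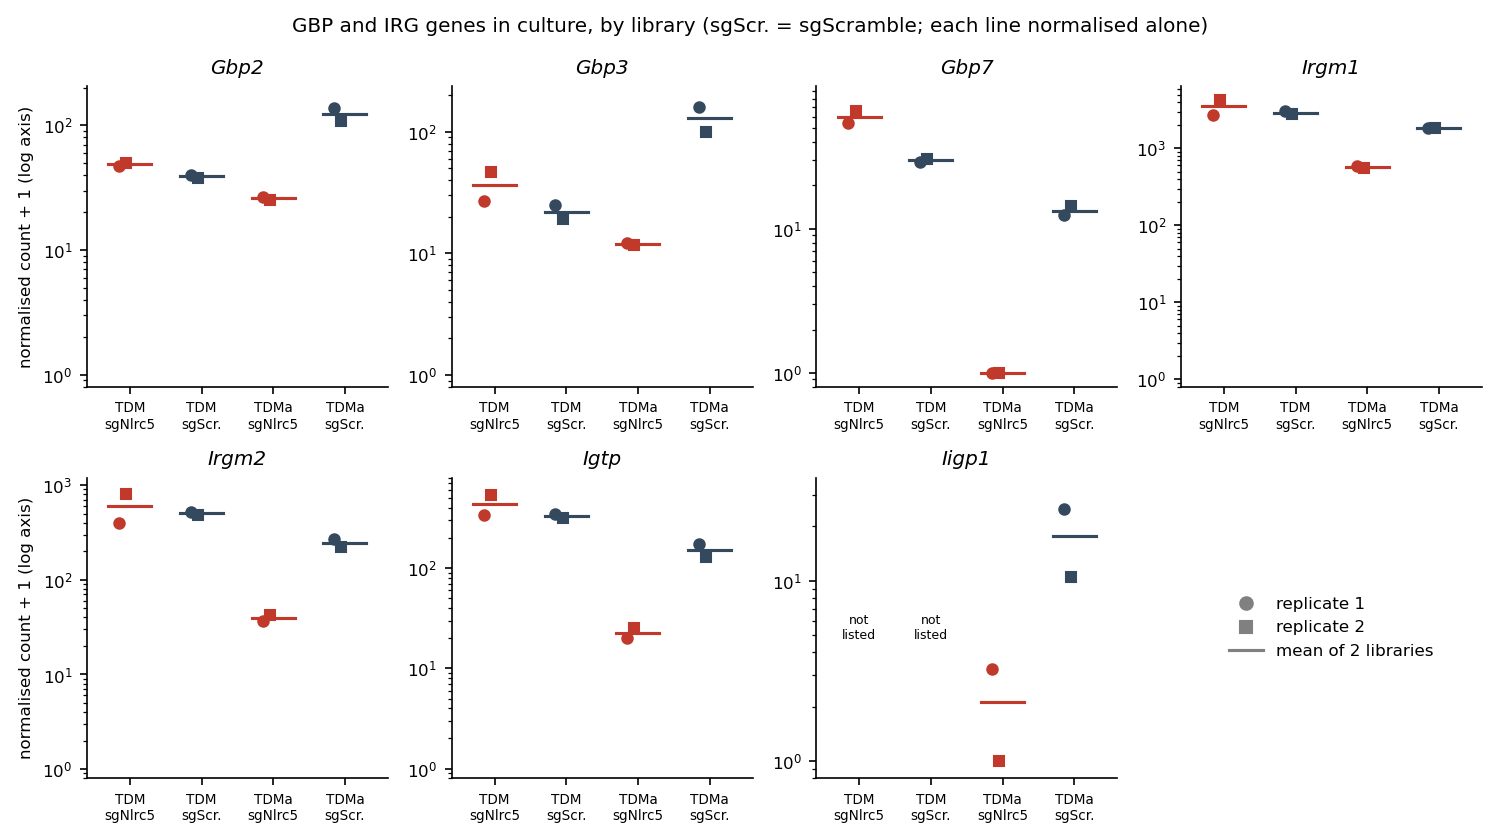
Normalised count plus 1 (log axis) of the 7 genes listed in a culture table, for sgNlrc5 (red) and sgScramble (dark blue) libraries of TDM and TDMa cells, with bars at the mean of 2 libraries. In TDMa culture the sgNlrc5 libraries sit below the sgScramble libraries in each panel, while in TDM culture they overlap for Irgm1, Irgm2 and Igtp.

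In tumours grown from TDMa cells the log2 fold changes of all 10 genes were above 0. Here 6 of the 10 genes were higher with sgNlrc5, namely Gbp4, Gbp5, Gbp9, Irgm2, Igtp and Iigp1, and 0 were lower, while 19.7% of the 13385 genes tested were called higher and 39.4% were called in either direction. Among those called, Irgm2 and Igtp had been called lower in TDMa culture, whereas Gbp4, Gbp5 and Gbp9 were not listed there and Iigp1 was not tested. The median log2 fold change of the 10 was 1.40, beside -0.010 over all genes tested. Quantile normalisation and scaling to equal sums left each of the 10 above 0.

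The regulatory IRGs Igtp and Irgm2 and the guanylate-binding protein gene Gbp9 were the 3 whose groups did not overlap, which was so with sgNlrc5 above for 18.1% of all genes tested. Igtp was at 10853, 9593, 5376 and 9973 normalised counts in sgNlrc5 tumours, against 2418, 659, 2719 and 5280 in sgScramble tumours, which is 1.98 ± 0.48 in log2 (limma adjusted p = 0.0069). Gbp9 (ENSMUSG00000029298) was at 658, 486, 394 and 701 in sgNlrc5 tumours, against 176, 82.1, 174 and 378 in sgScramble tumours (1.63 ± 0.36, adjusted p = 0.0039). Irgm2 was at 3264, 2648, 2334 and 4057 in sgNlrc5 tumours, against 1186, 470, 1226 and 2232 in sgScramble tumours (1.44 ± 0.36, adjusted p = 0.008). In each case the highest sgScramble library came close to the lowest sgNlrc5 library without reaching it. These 3 were called under all 17 alternatives.

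Gbp4, Gbp5 and Iigp1 were also called, with overlapping groups. Gbp4 (ENSMUSG00000079363) was at 2801, 1955, 1312 and 3093 normalised counts in sgNlrc5 tumours, against 564, 150, 753 and 2114 in sgScramble tumours (1.84 ± 0.59, adjusted p = 0.028). Gbp5 (ENSMUSG00000105504), reported to promote assembly of the NLRP3 inflammasome, was at 288, 179, 148 and 243 in sgNlrc5 tumours, against 80.4, 27.7, 85.5 and 189 in sgScramble tumours (1.41 ± 0.44, adjusted p = 0.025). Iigp1 was at 5743, 3890, 3015 and 5900 in sgNlrc5 tumours, against 2404, 453, 1906 and 3949 in sgScramble tumours (1.40 ± 0.51, adjusted p = 0.046). For all 3 the overlap came from sgScramble replicate 4 alone, which lay above the lowest sgNlrc5 libraries. Their calls were near the threshold, and the adjusted p over the 17 alternatives ran from 0.0025 to 0.077 for Gbp4, from 0.0031 to 0.064 for Gbp5 and from 0.011 to 0.11 for Iigp1. Their size rested in part on sgScramble replicate 2. Without it the log2 fold changes were 1.17 for Gbp4, 0.92 for Gbp5 and 0.77 for Iigp1, and without sgScramble replicate 4 they were 2.44, 1.83 and 1.81 in the same order, with the calls kept. The Gbp4 call ended without sgNlrc5 replicate 1 (adjusted p = 0.061), 2 (0.056) or 4 (0.07), without sgScramble replicate 1 (0.062), and without the intensity trend (0.077). The Gbp5 call ended without sgNlrc5 replicate 1 (0.061) or 4 (0.057) and without the trend (0.064). The Iigp1 call ended without sgNlrc5 replicate 1 (0.095), 2 (0.077) or 4 (0.1), without sgScramble replicate 1 (0.053) or 3 (0.073), and without the trend (0.11).

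The other 4 genes did not pass. Gbp3 was at 1175, 848, 776 and 1392 normalised counts in sgNlrc5 tumours, against 553, 170, 503 and 1118 in sgScramble tumours (1.08 ± 0.43, adjusted p = 0.062). Irgm1 was at 10097, 8411, 7020 and 11223 in sgNlrc5 tumours, against 5963, 2097, 4857 and 11079 in sgScramble tumours (0.83 ± 0.37, adjusted p = 0.098). For both, sgScramble replicate 4 was again the only sgScramble library above the lowest sgNlrc5 library. Gbp2 was at 2717, 2175, 1734 and 3181 in sgNlrc5 tumours, against 1749, 429, 1518 and 4892 in sgScramble tumours (0.64 ± 0.53, adjusted p = 0.37). Gbp7 was at 864, 583, 406 and 830 in sgNlrc5 tumours, against 639, 170, 551 and 714 in sgScramble tumours (0.50 ± 0.39, adjusted p = 0.34). Gbp2 was the single gene of the 10 whose highest library was an sgScramble one. That an effect passed the threshold for some genes and not for others does not show that their effects differed, which was not tested.

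**Figure D2:**
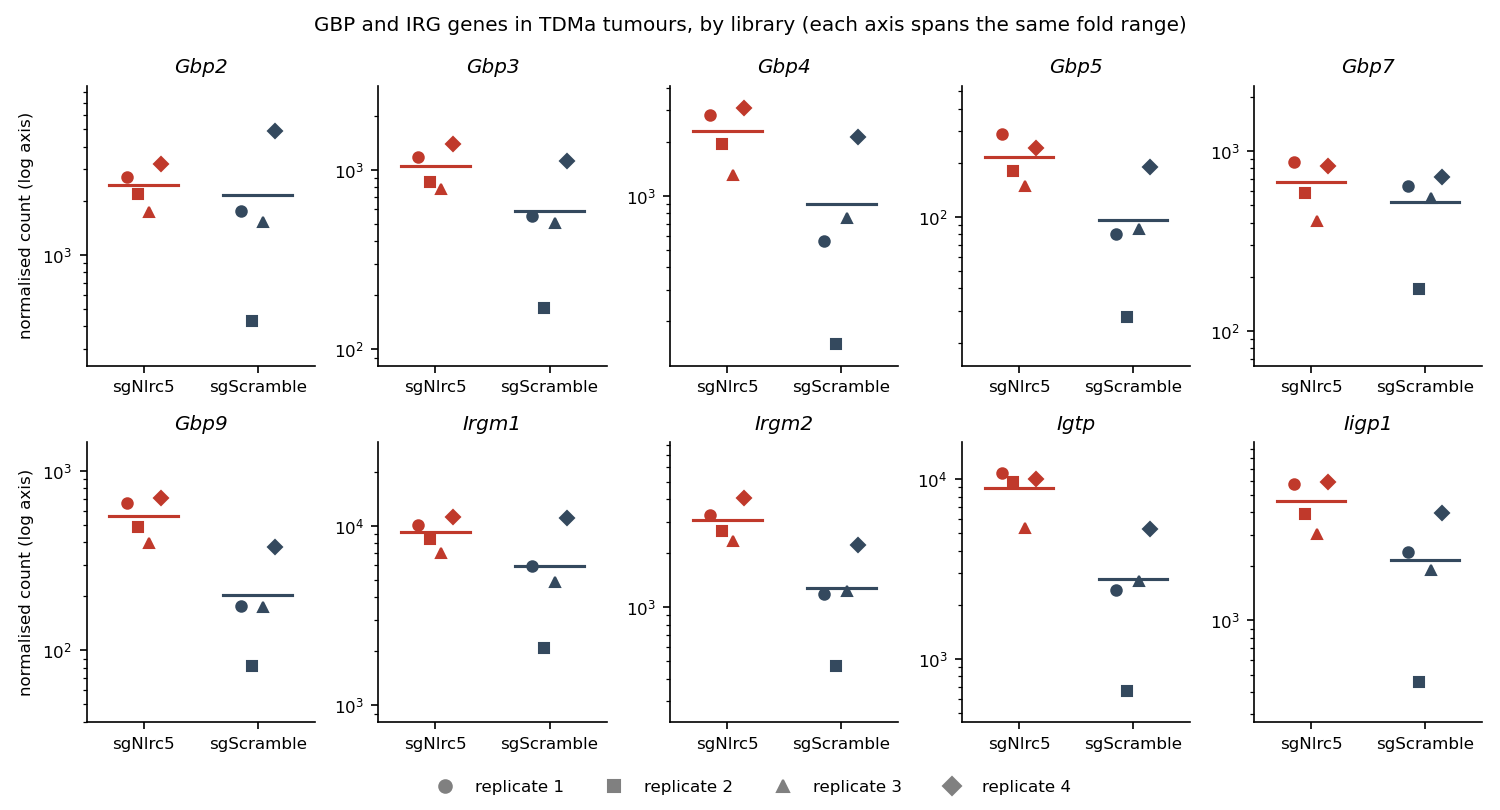
Normalised count (log axis) of each of the 10 genes in 4 sgNlrc5 (red) and 4 sgScramble (dark blue) TDMa tumour libraries, with symbols for the replicate number and bars at the mean. In each panel sgScramble replicate 2 is the lowest of the 8 libraries, and sgScramble replicate 4 is the highest sgScramble library.

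The 10 genes differed widely between tumours of the same guide. The sgScramble tumours ranged widely: the highest library was 4.20 to 14.1 times the lowest (median 6.70), against 1.60 to 2.36 times in sgNlrc5 tumours (median 1.89), with sgNlrc5 the narrower for each gene. The SD of the log2 values was larger in sgScramble tumours for 10 of 10 genes, beside 42.8% of all genes tested. The order of libraries was also shared. Within sgScramble tumours replicate 2 was the lowest for 10 of 10 genes (23.5% of all genes tested) and replicate 4 the highest for 10 of 10 (26.6%), and replicate 2 was the lowest of all 8 libraries for 10 of 10 (13%). Within sgNlrc5 tumours replicate 3 was the lowest for 10 of 10 (28.5%). The pattern was not limited to the 10. Of 16 tested relatives, listed GBP, IRG, very large GTPase and Mx genes, 15 had the larger SD in sgScramble tumours, with replicate 2 the lowest sgScramble library for 13 and replicate 4 the highest for 14. As genes induced by the same cytokines, the 10 are not independent observations of a library.

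Both sgScramble extremes moved the values. Without sgScramble replicate 4, the tumour with the higher levels, Gbp3 (1.49, adjusted p = 0.0079), Irgm1 (1.20, adjusted p = 0.0096) and Gbp2 (1.19, adjusted p = 0.038) were called too, and 9 of 10 genes were higher with sgNlrc5. Over the alternatives the adjusted p ran from 0.0079 to 0.14 for Gbp3, from 0.0096 to 0.24 for Irgm1 and from 0.038 to 0.97 for Gbp2. Without sgScramble replicate 2, the tumour with the lower levels, Gbp2 was at 0.02 and Gbp7 at 0.03, while 6 of 10 were still called. The number called ran from 3 to 9 as single libraries were left out, and it was 3 without sgNlrc5 replicate 1 and without sgNlrc5 replicate 4.

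Markers of other cells moved with the guide in the same tumours, where 19.7% of all genes tested were called higher and 2633 of 13385 lower. All 8 T cell markers were higher with sgNlrc5, although only 2 had a mean of at least 10 in both guides, with sums of 1012, 547, 265 and 411 normalised counts in sgNlrc5 tumours, against 57.5, 56.3, 82.5 and 70.6 in sgScramble tumours. All 12 macrophage and monocyte markers were higher, with sums of 15394 to 21268 in sgNlrc5 tumours, against 4550 to 7339 in sgScramble tumours. All 6 general leukocyte markers were higher, with sums of 3609 to 5494 in sgNlrc5 tumours, against 890 to 1941 in sgScramble tumours. The groups did not overlap for any of these sums. Of 6 natural killer cell markers 3 were listed, with no entry for Ncr1, Klrb1c or Klra8, and 2 were tested, neither with a mean of at least 10 in both guides, with sums of 48.2 to 140 in sgNlrc5 tumours, against 5.73 to 20.9 in sgScramble tumours. Among endothelial markers 0 of 3 tested were called. Among fibroblast markers 1 of 4 was higher and 1 lower, and among melanocyte lineage genes 2 of 7 were higher and 1 lower. The fibroblast and melanocyte counts were near the shares called among all genes tested.

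The sums of the 10 GTPase genes were 38460, 30768, 22515 and 40594 in sgNlrc5 tumours, against 15732, 4706, 14292 and 31945 in sgScramble tumours. Within sgScramble tumours replicate 2 had the lowest sums of the GTPases, of T cell markers, of macrophage and monocyte markers and of leukocyte markers. For T cell markers it was at 56.3 beside 57.5 in replicate 1, and for macrophage and monocyte markers at 4550 beside 4587 in replicate 3. Its natural killer cell sum, 5.73, was also the lowest, while its endothelial sum, 218, and fibroblast sum, 518, were the highest. Replicate 4 had the highest sums of the GTPases, of macrophage and monocyte markers and of leukocyte markers, while replicate 3 had the highest T cell sum. Within sgNlrc5 tumours replicate 3 had the lowest sums of the GTPases and of T cell markers and the highest macrophage and monocyte sum, 21268 beside 21250 in replicate 1. The part of these cells in the levels of the GTPases was not tested. In TDMa culture 0 of the 8 T cell and 0 of the 6 natural killer cell markers were listed, 1 of 6 leukocyte markers (Coro1a) and 2 of 12 macrophage and monocyte markers (Cd68 and Lyz2). Cd68 was higher with sgNlrc5, and Lyz2 averaged 9.98 normalised counts with sgNlrc5 and 51.0 with sgScramble. In that culture 6 of 7 melanocyte lineage genes were higher, as were 2100 of all 12138 genes tested. In TDM culture Cd3d was the single T cell marker listed, at 549 and 581 normalised counts with sgNlrc5, against 566 and 487 with sgScramble.

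**Figure D3:**
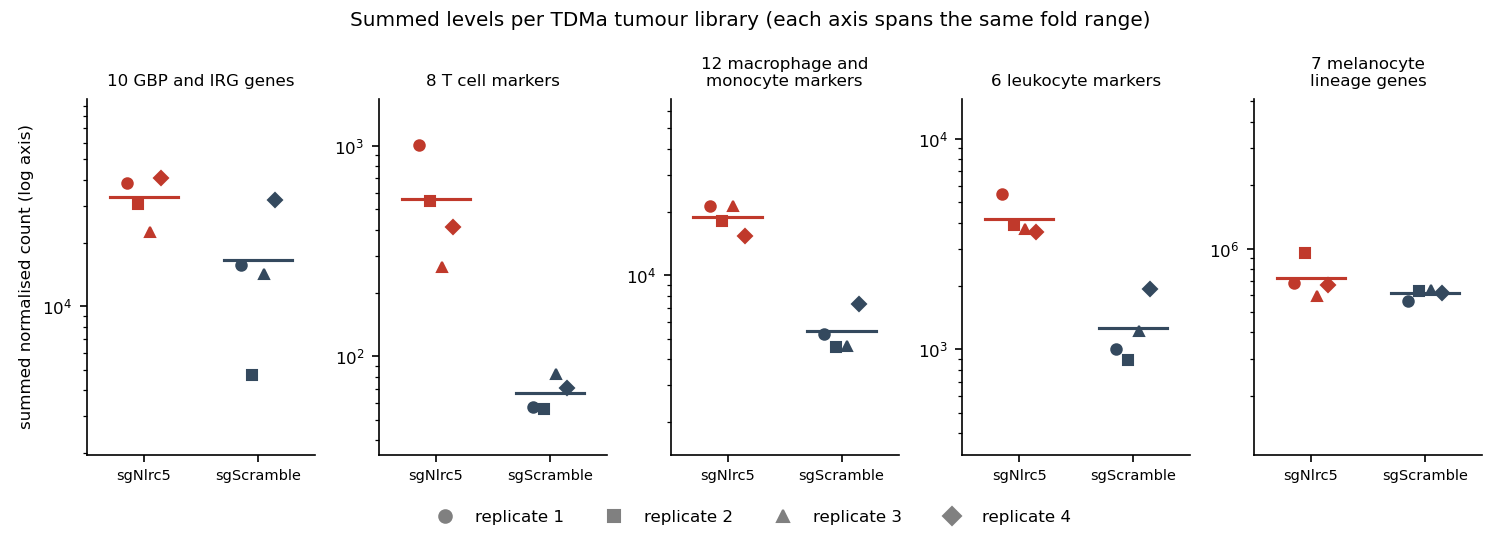
Summed normalised counts (log axis) of the 10 GTPase genes and of 4 marker lists in each of 4 sgNlrc5 (red) and 4 sgScramble (dark blue) TDMa tumour libraries, with bars at the mean. The T cell, macrophage and leukocyte sums separate the guides, whereas sgScramble replicate 4, at 31945, reaches the sgNlrc5 range of the GTPases.

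Whether the guide effect differed between settings was tested for the 5 genes tested in all tables, Gbp2, Gbp3, Irgm1, Irgm2 and Igtp. Such a test asks whether effects differ and does not by itself show a change of sign. Of the 5, none was called in TDM culture, and only Irgm2 and Igtp were called both lower in TDMa culture and higher in tumours. Both differences below use the same TDMa culture libraries and are therefore not independent of each other. The guide effect in TDMa culture minus that in TDM culture was called for 5 of 5, all below 0, while 22.7% of 11492 genes were called and 10.8% were called below 0. It was -4.10 ± 0.49 for Gbp3 (limma interaction, adjusted p = 4.9e-07), where the fold changes were -3.40 in TDMa and 0.70 in TDM culture. Irgm1 had the smallest difference, at -1.92 ± 0.15 (adjusted p = 3.2e-10). The other 3 were at -3.09 ± 0.27 (Igtp), -2.79 ± 0.27 (Irgm2) and -2.55 ± 0.37 (Gbp2).

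The guide effect in TDMa tumours minus that in TDMa culture was also called for 5 of 5, all above 0, while 36.6% of 11782 genes were called and 15% were called above 0. Igtp had the greatest of the 5 differences, at 4.72 ± 0.54 (adjusted p = 7.8e-06), followed by Gbp3 at 4.48 ± 0.51 (adjusted p = 6.9e-06) and Irgm2 at 4.06 ± 0.40 (adjusted p = 1.9e-06). Gbp2 was at 2.86 ± 0.59 (adjusted p = 0.0013) and Irgm1 at 2.52 ± 0.41 (adjusted p = 0.00018). Gbp2, Gbp3 and Irgm1 showed this difference although their fold change within tumours did not pass. All calls of both differences held under the alternatives run.

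**Figure D4:**
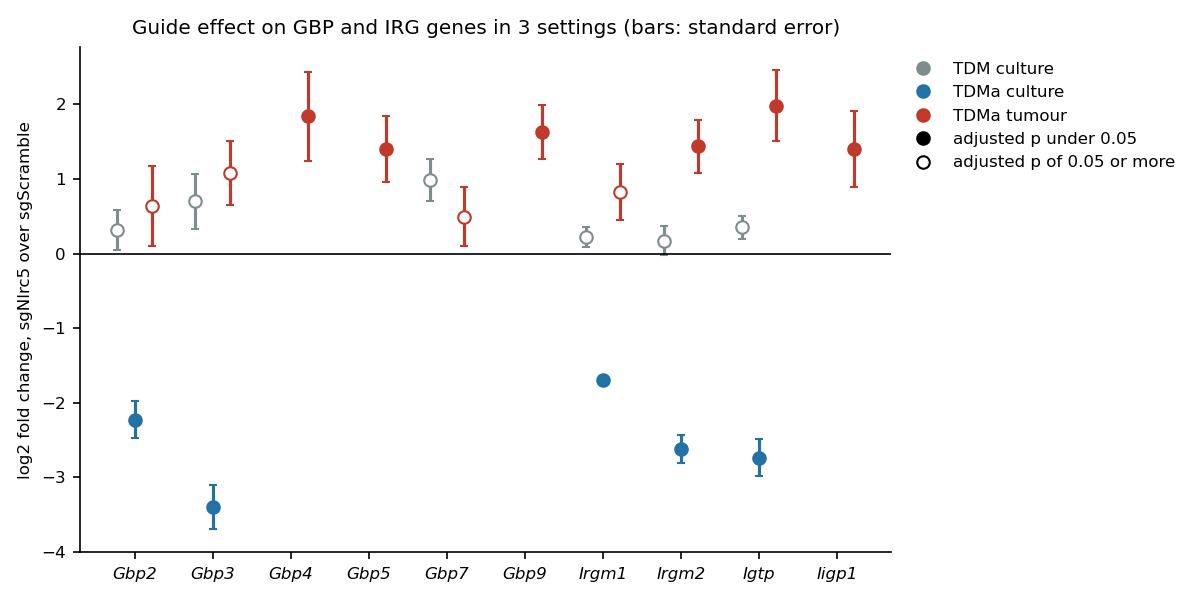
Log2 fold change, sgNlrc5 over sgScramble, with its standard error for each gene tested in TDM culture (grey), TDMa culture (blue) and TDMa tumours (red), filled where the adjusted p was under 0.05. The 5 TDMa culture values lie between -3.40 and -1.69, below every value of the other settings.

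The genes around this family in the interferon pathway were read from lists, and moved in part with it. Of interferon gamma signalling genes in TDMa culture 5 of 13 were lower and 1, Nlrc5 itself, was higher (median -0.18, beside -0.00064 over all genes tested). The share called lower among all genes tested there was 16.9%. Irf9, a factor of the interferon response, averaged 113 ± 22.1 normalised counts with sgNlrc5 and 349 ± 59.4 with sgScramble (SD, n = 2 and 2), or -1.63 ± 0.16 in log2 (adjusted p = 1.6e-07). Irf1, a factor that binds ISREs, was at -0.74 ± 0.11 (adjusted p = 3e-05). In TDM culture 1 of 13 was higher, again Nlrc5, and 0 were lower.

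Of 16 interferon gamma signalling genes with a mean of at least 10 in both guides, 11 were higher in tumours and 1 was lower (median 0.73, beside -0.010 over all genes tested). The targeted gene Nlrc5 is counted among the 11 and in the median, as in culture. Among all genes tested 19.7% were called higher. The receptor subunit gene Ifngr2 was at 0.77 ± 0.095 (adjusted p = 0.00013), and Irf8, a factor of myeloid cells, at 1.67 ± 0.23 (adjusted p = 0.00025). The lower one was Ptpn2, a phosphatase that dampens JAK signalling, at -0.91 ± 0.084 (adjusted p = 2.6e-05). Ifng, the cytokine gene, was singled out after its values were seen. It was at 24.1, 13.9, 16.3 and 10.0 normalised counts in sgNlrc5 tumours, against 0, 1.91, 5.96 and 14.1 in sgScramble tumours (1.97 ± 0.73), and it missed the threshold. The highest sgScramble library for Ifng was replicate 4, as for the GTPases, and the library at 0 was replicate 1.

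Other genes of the interferon gamma response did not share the drop in TDMa culture as a block. Of 12138 genes tested there, 2100 were called higher and 16.9% lower. In this list 4 of 11 were higher and 3 lower (median -0.20). The higher ones were the class I and antigen processing genes H2-D1 (4.88), Psmb9 (3.56), Tap1 (2.09) and B2m (1.41), and the lower ones were the chemokine gene Cxcl10 (-2.51), Irf1 (-0.74) and Psmb10 (-0.57, adjusted p = 0.0013), an immunoproteasome gene. Antigen processing genes thus did not all move one way, and the transporter gene Tap2 was at -0.20 ± 0.24 (adjusted p = 0.57). Tap2 and Psmb10 were chosen after their values were seen. Irf1 was also one of the signalling genes above, so that its call is counted in both lists. In tumours 14 of 17 genes of this response list were higher, beside 19.7% of all genes tested, and 0 were lower (median 1.95). In TDM culture 2 of 11 were higher, where 0.517% of all genes tested were called in either direction.

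The machinery that works with GBP and IRG proteins was less uniform. A list of 14 genes for their delivery to vacuoles held LC3, GABARAP and the genes that conjugate them, the adaptor gene Sqstm1 and the ubiquitin ligase genes Traf6 and Trim21. In TDMa culture 5 of the 14 were lower, beside 16.9% of all genes tested, and 1 was higher (median -0.067), and the lower ones with the smallest p were Sqstm1, Gabarap, Trim21 and Atg7. Of these, the ligase gene Trim21 was at -1.34 ± 0.23 (adjusted p = 0.00013) and Sqstm1 at -0.49 ± 0.028 (adjusted p = 1.5e-10), while the conjugated protein's gene Gabarap was at -0.26 ± 0.037 (adjusted p = 2.9e-05). In tumours 3 of 14 were higher and 0 lower (median -0.0094), a share near the 19.7% called higher among all genes tested, with Trim21 at 0.88 ± 0.21 (adjusted p = 0.0057) and Map1lc3a at 0.42 ± 0.10 (adjusted p = 0.0075). In TDM culture 0 of 14 were called. Of 10 inflammasome genes with a mean of at least 10 in both guides 7 were higher and 0 lower in tumours (median 1.08). The share called higher among all genes tested was 19.7%. The higher inflammasome genes included the adaptor gene Pycard at 1.70 ± 0.18 (adjusted p = 5.4e-05), Il18 at 1.00 ± 0.18 (adjusted p = 0.0013) and the DNA sensor gene Aim2 at 1.75 ± 0.34 (adjusted p = 0.0019). In TDMa culture 1 of 2 such genes was lower, Il18 at -1.52 ± 0.31 (adjusted p = 0.00071). Casp4, which passed the filter through sgScramble alone, had 0 reads in both sgNlrc5 libraries and 22 and 21 with sgScramble, and was at least 13.1-fold lower with sgNlrc5 by the bound used for Gbp7.

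The genes most like this family were found by the distance between a gene's 3 log2 fold changes and the medians of the 5 members tested throughout, 0.32 in TDM culture, -2.62 in TDMa culture and 1.08 in tumours, over 11334 genes. The nearest was Xaf1, at 0.44, -2.72 and 1.25 in the same order and a distance of 0.225. Next came Dhx58 (0.338), Rtp4 (0.353), Sp140 (0.442) and Cxcl10 (0.447), then H2bc21 (0.496), Oasl2 (0.503), Usp18 (0.506), Ifi27 (0.510) and Sod3 (0.569). The 5 members themselves lay at 0.380 to 0.967. These genes were picked for their likeness, which has no test.

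Several of the 10 genes have close paralogs, and the sources used here do not say how reads shared between them were counted. The share of a gene's 50-base stretches found in transcripts of another gene ran from 0.31% for Irgm1 to 12.7% for Gbp7. The annotation searched was of an earlier build than the one the submitters named. For Gbp7, 10.5% of the stretches were shared with the predicted gene Gm43802. Igtp shared 11.8% with Irgm2, and Gbp3 shared 3.75% with Gbp7.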

How the data were processed

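RNA had been sequenced with a strand-keeping kit, per the labels' protocols. The deposited values were log2 of a normalised count plus 1, in 3 tables that the authors had normalised separately, per the file headers and the labels. Per the submitters' processing notes, the tools were STAR 2.7.10a, FastQC 0.12.0 and DESeq2 1.36.0, and the genome builds mm39 and GRCm39, with no role stated for any. The counting tool, its strand setting, the annotation and the filter on listed genes are not given in the sources used here. Whole reads were recovered from the steps between low values, of which 100% were whole within 0.1 read in the 16 libraries.

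Groups were taken from the sample titles. Genes averaging at least 10 normalised counts in a table were fitted, table by table, on log2(normalised count + 1) in limma 3.58.1 under R 4.3.3, with an intensity trend. This scale understates the change of low genes. Differences between guide effects were interaction terms with array weights by table. The fits were tested on simulated data with the same spread in both guides, which does not cover the unequal spread of the 10 genes in tumours. Alternatives were other pseudocounts, filters and scalings, no trend, voom on the recovered reads, a replicate block and leaving out each library. The named genes were all 10 members, Nlrc5, up to 4 genes of each pathway list with the smallest p, and the 10 genes with the nearest fold changes. The 10 members and all lists were chosen with earlier results of these data known, so that no count over them is independent support. Genes were not compared in level with each other, since no value is per length. One gene of the interferon lists is counted but not reported here.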

Additional observations from a re-analysis of the deposited data

Results flagged for a closer look

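Each of the 5 genes tested in all tables had a guide effect that differed between settings by a limma interaction test. In TDMa culture minus TDM culture the difference on the log2 scale was -4.10 for Gbp3, -2.55 for Gbp2, -1.92 for Irgm1, -2.79 for Irgm2 and -3.09 for Igtp. In TDMa tumours minus TDMa culture it was 4.48 for Gbp3, 2.86 for Gbp2, 2.52 for Irgm1, 4.06 for Irgm2 and 4.72 for Igtp. The cells other than tumour cells that tumours hold, and their part in the second difference, were not tested. None of the 20 groups of 4 tumour libraries had a library that stood apart by Dixon's criterion.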

How the results depend on the processing

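Both differences of guide effects kept 5 of 5 calls under every alternative run, and TDMa culture kept at least 5. In TDM culture the number of genes called was 0 and ran from 0 to 3 as single libraries were left out. Leaving out 1 library moved Irgm1 there between -0.1165, a reversal without sgNlrc5 replicate 2, and 0.5618, and Irgm2 between -0.3248, likewise reversed, and 0.6715. In tumours the number called was 6, ran from 3 to 9 as single libraries were left out, and was 3 without the intensity trend. Of 170 single-gene values in tumours 14 lost their call, 6 gained one and none changed sign. Without the filter on low values Gbp7 and Iigp1 were also called in TDMa culture, for 7 calls. The cause of these changes was not tested. Over all genes tested, same-numbered libraries did not deviate together, with correlations of -0.024 in TDM culture, -0.015 in TDMa culture and -0.21 to 0.11 in tumours. Such correlations cannot show whether same-numbered samples were paired, which the labels do not say. With a replicate block 0 genes were called in TDM culture, 5 in TDMa culture and 8 in tumours. In tumours the block went with smaller standard errors, such as 0.259 against 0.427 for Gbp3 and 0.225 against 0.358 for Irgm2. Gbp7 and Iigp1 had few reads in TDMa culture, where sgNlrc5 libraries held 0 to 2 reads of each, so that counting error bounds their changes. These libraries held 12183889 and 14159573 reads in all, against 13857653 and 13962309 with sgScramble.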

Other observations

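Relatives of the 10 genes followed the same directions in part. They were read from a list of 23 GBP, IRG, very large GTPase and Mx genes outside the 10. In TDMa culture 3 of 4 with a mean of at least 10 in both guides were lower, beside 16.9% of all genes tested, and 0 higher. Ifi47, an IRG, averaged 68.3 ± 7.55 normalised counts with sgNlrc5 and 227 ± 19.8 with sgScramble (SD, n = 2 and 2), or -1.72 ± 0.17 in log2 (limma adjusted p = 2.1e-07). Tgtp2, an effector IRG that passed the filter through sgScramble alone, had 1 read in each sgNlrc5 library and 25 and 27 with sgScramble, a ratio with a 95% interval of 0.00495 to 0.159 for counting error only. The antiviral GTPase genes Mx2 and Mx1 were at -1.06 ± 0.31 (adjusted p = 0.012) and -0.64 ± 0.24 (adjusted p = 0.045). In TDM culture 0 of 7 were called by limma.

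In tumours 7 of 15 relatives with a mean of at least 10 in both guides were higher and 0 lower (median log2 fold change 1.33). Among all genes tested there 19.7% were called higher. Gbp2b averaged 91.8 ± 29.0 normalised counts in sgNlrc5 tumours and 16.05 ± 16.41 in sgScramble tumours (SD, n = 4 and 4), or 2.95 ± 0.62 in log2 (adjusted p = 0.0031). Gbp8 averaged 328 ± 130 in sgNlrc5 tumours and 101 ± 101 in sgScramble tumours (2.15 ± 0.58, adjusted p = 0.012). Gm4951, a gene close in sequence to Iigp1, was at 1.75 ± 0.44 (adjusted p = 0.0087), and Mx2 at 1.14 ± 0.30 (adjusted p = 0.011).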
